A study of Sus scrofa with 4 samples.

Results

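S100A10, S100A4 and S100A8 encode members of the S100 family, small calcium-binding proteins of the EF-hand type. They were taken from a porcine microarray by gene symbol, each through its brightest probe, and are 3 of the 9962 genes that had a named probe with a value on every array. Each had a single probe. The members were selected with their ratios on these same arrays already known, so their values are given as a description and carry no test. All 3 had a value on all 4 arrays, and 2 of them, S100A10 and S100A4, had a signal above background in every RNA.

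Most S100 proteins work as dimers that change shape when calcium binds and then dock onto target proteins inside the cell, and some are also released and act on cell-surface receptors. S100A10, also called p11, has lost the ability to respond to calcium and is found in a complex with annexin A2 at the plasma membrane, where it can bind plasminogen and its activators. S100A4 binds non-muscle myosin and is widely used as a marker of fibroblasts and of epithelial-mesenchymal transition. S100A8 pairs with S100A9 to form calprotectin, an abundant protein of neutrophils and monocytes that acts through TLR4 and AGER.

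The study compared granulosa cells (GCs) of pig follicles that had been exposed, together with cumulus-oocyte complexes (COCs), to an elevated level of non-esterified fatty acids (NEFAs) with GCs that had not. The NEFA group was grown as monolayers for 7 days and then held COCs for the 44 h of in vitro maturation (IVM) in medium with palmitic, stearic and oleic acid. The control group was grown in the same way in the same medium, with albumin and ethanol but no added fatty acids. Gonadotrophins and dibutyryl cyclic AMP were present in both media for the first 22 h, EGF and follicular fluid throughout. The GCs came from slaughterhouse ovaries, so animals were mixed, and each replicate pooled 4 wells. The COCs were removed before lysis. There were 4 replicates, each from its own day, and each gave a NEFA RNA and a control RNA that shared a 2-colour array (A, B, C or D).

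The direction of every ratio carries a limit. The titles of the arrays and their channel fields contradict each other on which dye the NEFA RNA carried. The channel fields were followed, because the signs of the study's own gene table were then met more often, in both readings of array A described next. They were met less often with array A exchanged than as headed. The direction is therefore only likely, and by the titles every sign below would turn. In addition, the red-over-green ratios followed the labelled dye orientation only in part. That orientation is shared by arrays A and B and by arrays C and D. Array A had a Pearson r across probes of -0.74 with array B, -0.32 with C and -0.30 with D. Array B had r = 0.41 with C and 0.32 with D, in spite of the opposite labels, and C and D had r = 0.47. The signs of A with C, A with D and C with D were those of the labels. Every pair with array B had the sign opposite to the labels, and arrays B, C and D ran alike whatever the orientation. Exchanging the columns of array A turns its r with each other array positive. That sign goes with the labels for B, but against them for C and D. Ratios of this kind also carry differences between the dyes, and their part was not tested. On array A the higher median background stood under the green heading (117, with 63.3 under red), whereas arrays B to D had their higher background, 116 to 173, under red and 60.8 to 75.1 under green. No label speaks of exchanged columns. Each ratio is therefore given with the columns as headed and again with the 2 columns of array A exchanged, a choice made after seeing the data. The exchange turns the sign of array A alone.

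A spot counted as above background where it exceeded the mean plus 2 SD of 153 negative control spots in its array and dye, as 23.9% to 42.7% of the probes did. Among the markers of the labelled cell type, AMH and FST were above background in all 8 RNAs, whereas LHCGR and INHBA were in none, and 7 of 17 listed granulosa markers had a named probe. With 4 arrays the precision of each value is limited.

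S100A10 gave a bright spot on every array, and on arrays B, C and D the NEFA spot was the dimmer one. The raw intensity in the NEFA RNA was 17341 on array A, 8966 on B, 6686 on C and 17520 on D. In the control RNA it was 8829 on array A, 18754 on B, 14098 on C and 26798 on D. Array A was thus the only one with the brighter NEFA spot under its column headings. All 8 intensities were far above the background limits, which ran from 381 to 698.

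After normalization the log2 ratio of NEFA to control for S100A10 was 1.01 on array A as headed, or -1.01 with its columns exchanged. It was -1.10 on array B, -0.93 on array C and -0.64 on array D. By its label array B carried the NEFA RNA in the other dye than arrays C and D. Across probes, however, array B ran against that label. Whether the lower NEFA signal appeared in both dye orientations rests on the label, and the part of the dyes was not tested. As headed, the 4 arrays averaged -0.41 ± 0.97 (SD, n = 4), and leaving out array B gave -0.19 (n = 3). With array A exchanged the mean was -0.92 ± 0.20 (SD, n = 4), which is 0.529 times the control signal, and no array was above 0. Without array A the mean was -0.89 ± 0.23 (SD, n = 3). The normalized log2 levels of the groups overlapped in both readings, because the arrays differed in level, with 12.83 to 14.03 in NEFA GCs and 13.76 to 14.67 in control GCs after the exchange. The size of the ratio was alike on arrays A, B and C, and what the reading of array A decides is its sign.

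**Figure D1:**
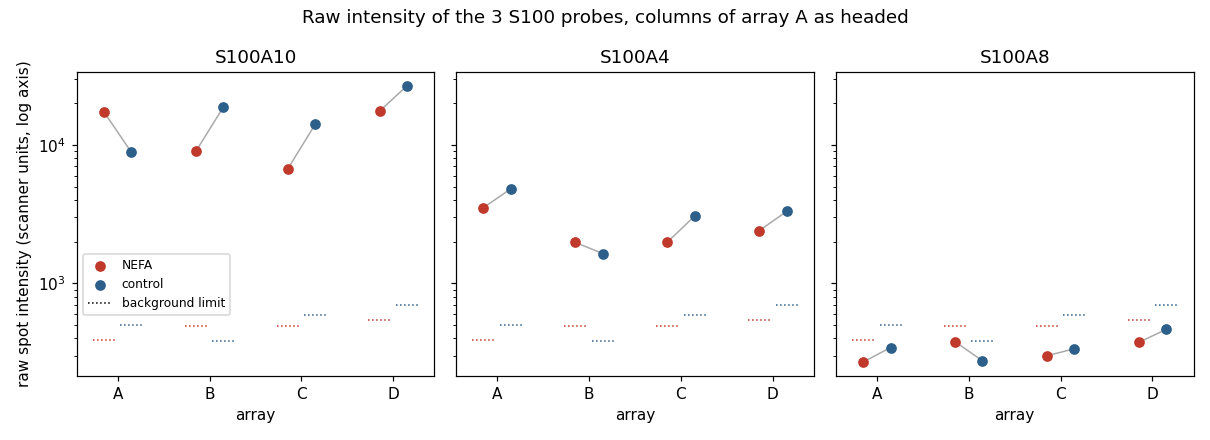
Raw spot intensity (scanner units, log axis) of the S100A10, S100A4 and S100A8 probes on arrays A to D, with the NEFA RNA left and the control RNA right on each array, columns of array A as headed. Dotted lines are the background limits of each RNA. S100A10 and S100A4 lie above them everywhere, and all 8 S100A8 points lie below.

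Set beside all other genes, S100A10 stood near the lower end of the ratios. Among the 2461 genes above background in all 8 RNAs it held place 10 from the lowest ratio as headed and place 1 with array A exchanged. Among all 9962 genes it held place 23 as headed and place 2 with the exchange. These places describe the ratios that chose the gene. With array A exchanged and a term for the dyes added, the NEFA ratio was -0.98. The red-minus-green difference of the probe was then 0.12 on the log2 scale. That fit turned the NEFA sign of array A but kept its dye as headed. These values therefore do not measure the part of the dyes under exchanged columns, which was not tested. In RNA from whole monolayers, fewer cells of a type and less transcript per cell cannot be told apart.

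S100A4 had a moderate signal that was above background in every RNA and differed less between the groups. Its raw intensity in the NEFA RNA was 3524 on array A, 1972 on B, 1976 on C and 2395 on D. In the control RNA it was 4824 on array A, 1639 on B, 3069 on C and 3308 on D. As headed, the NEFA spot was the dimmer one on 3 of 4 arrays, and the groups overlapped.

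The log2 ratio of NEFA to control for S100A4 was -0.40 on array A as headed (0.40 exchanged), 0.01 on B, -0.24 on C and -0.38 on D. Arrays A, C and D were thus below 0 as headed, and array B was close to 0. The mean was -0.25 ± 0.19 (SD, n = 4) as headed. With array A exchanged it was -0.05 ± 0.34 (SD, n = 4), with 2 arrays below 0 and 2 above. Without array A it was -0.20 ± 0.20 (SD, n = 3). The spread between replicates therefore exceeded the mean once array A was exchanged, and leaving out array D then gave 0.06 (n = 3). Among the 2461 genes above background S100A4 held place 145 from the lowest as headed and place 1202 with the exchange.

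The ratios of S100A10 and S100A4 did not run in parallel. On array A the ratios of the 2 probes had opposite signs, by either reading of the columns. Both ratios were below 0 on arrays C and D. On array B S100A10 had its lowest ratio, whereas S100A4 was closest to 0 there.

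**Figure D2:**
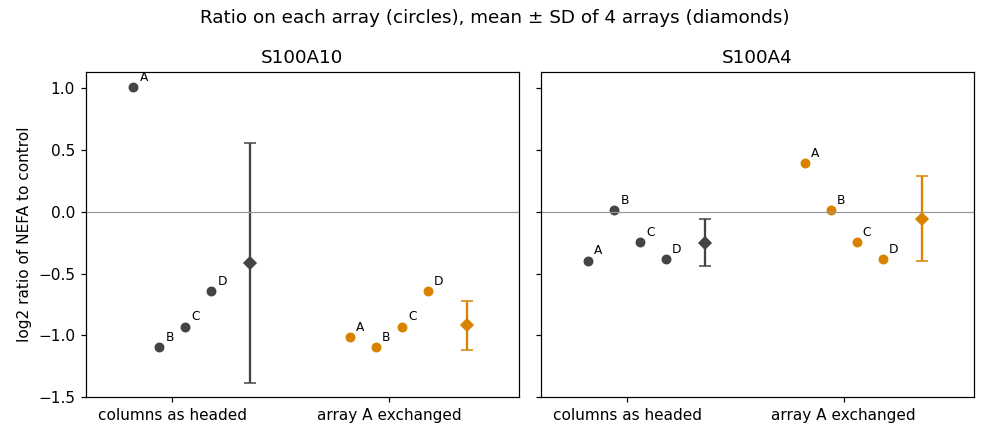
Log2 ratio of NEFA to control of S100A10 (left) and S100A4 (right) on each array (circles, lettered) with the columns as headed (grey) and with those of array A exchanged (orange). Diamonds are means and bars are SD over the 4 arrays. The exchange brings S100A10 to -0.92 with a narrow spread and S100A4 to -0.05.

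S100A8 was not detectable at this signal over background in any RNA. The raw intensity of its probe in the NEFA RNA was 269 on array A, 378 on B, 299 on C and 373 on D, against limits of 390, 494, 488 and 545 in the same dye. In the control RNA it was 343 on array A, 275 on B, 336 on C and 464 on D, against limits of 503, 381, 594 and 698. The spot was thus dimmer than nearly all negative control spots, at percentile 0 to 3.27 of them. No fold is given, since both groups were below background. An intensity below the limit does not show that the transcript was absent.

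Its partner S100A9 was close to background, above the limit in 2 of 8 RNAs. The mean normalized log2 level of S100A9 was 8.10 in NEFA GCs and 8.13 in control GCs as headed. With array A exchanged it was 8.13 in NEFA GCs and 8.10 in control GCs. S100A12, which neighbours S100A8 and S100A9 in the pig gene order and is likewise known from neutrophils, was above background in all 8 RNAs. Its mean log2 level was 10.41 in NEFA GCs and 10.48 in control GCs as headed, and 10.42 and 10.47 exchanged. In both readings the difference was smaller than its standard error (0.08). Of 8 leukocyte markers with a named probe, 0 were above background in every RNA and 4 in none, CD14, LYZ, FCER1G and MPO. The summed raw signal of the 8, less local background and before normalization, ranged from 1686 to 3215 in NEFA RNAs. It ranged from 1902 to 4326 in control RNAs, with array A as headed in both.

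The other S100 genes were set beside these members. The pig annotation (Sscrofa11.1) lists 18 S100 genes, 15 of them on chromosome 4, where S100A3, S100A4 and S100A5 follow each other, as do S100A11 and S100A10. Of 16 other family members looked for, 9 had a named probe and 3 of them, S100A11, S100A12 and S100A14, were above background in all 8 RNAs. None of the 9 passed the criterion of an unadjusted limma p under 0.05 and a 1.2-fold change, either as headed or with array A exchanged. Without array B, S100A14 (0.46) and S100Z (0.33) passed as headed, and without array D S100A2 (-0.65) passed with the exchange. Over all genes the criterion was met by 80 as headed (0.803%) and by 415 with the exchange (4.17%), so a count of 0 of 9 is no result about the family. Leaving out array B alone raised the count as headed to 1468 genes. In limma 0 probes as headed and 2 with the exchange had a Benjamini-Hochberg adjusted p under 0.05, and 612 and 2175 probes had an unadjusted p under 0.05.

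S100A11, the neighbour of S100A10 and likewise an annexin-binding protein, had a log2 ratio of -0.01 (SE 0.07) as headed and -0.03 (SE 0.07) with array A exchanged. Its ratios on arrays B, C and D were -0.03, -0.01 and -0.04. The S100A10 ratio was the lower one on each of these arrays. The S100A11 spot was, however, among the brightest of each array, with raw intensities of 36601 to 39622, where the maxima of the 8 RNAs were 39161 to 43025. The 55 probes that, like ANXA2, lay at or above percentile 99.6 in all 8 RNAs had a median absolute log2 ratio of 0.03. It was 0.25 for the 242 probes within the percentiles of S100A10 (97.1 to 99.4). Whether ratios near 0 in that top range reflect the RNA or the limit of the scale cannot be told apart. S100A14 varied widely, with -0.42 on array B and 0.79 on array C, and its mean was 0.24 (SE 0.20) as headed and -0.01 (SE 0.22) exchanged. A second S100A14 probe was above background in no RNA. S100A2, above background in 6 of 8 RNAs, had a mean of -0.07 (SE 0.25) as headed and -0.39 (SE 0.20) exchanged. S100A5, above background in 7 of 8, had 0.10 (SE 0.09) and -0.04 (SE 0.10). S100A3, S100G and S100Z were above background in at most 2 RNAs, and their means lay between -0.16 and 0.05 in both readings.

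**Figure D3:**
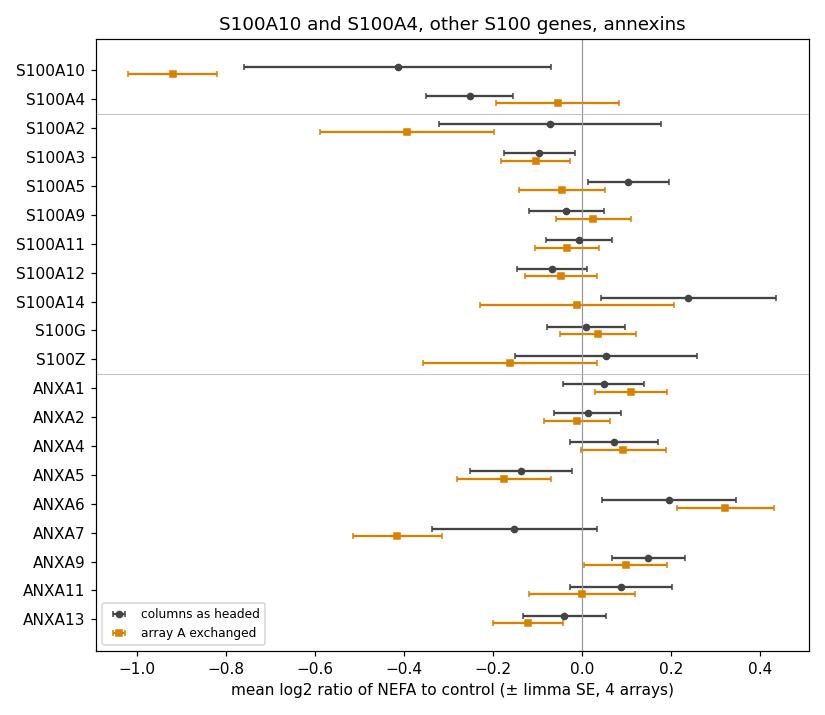
Mean log2 ratio of NEFA to control (x axis) with the standard error of limma over 4 arrays for S100A10 and S100A4 (top), 9 other S100 genes (middle) and 9 annexins (bottom), with columns as headed (grey circles) and array A exchanged (orange squares). S100A10 lies lowest in both readings, and S100A11 and ANXA2, whose spots are at the top of the scale, lie near 0.

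The annexins came next, since several S100 proteins bind them. ANXA2, with which S100A10 forms its complex, was bright in every RNA, and its log2 ratio was 0.05 on array A as headed, -0.04 on B, -0.02 on C and 0.06 on D. The mean was 0.01 (SE 0.07) as headed and -0.01 (SE 0.07) exchanged, but its raw intensities of 32356 to 39301 lay in the same top range, so a value near 0 does not show that ANXA2 was unchanged. Of 9 measured annexins 0 passed the criterion as headed. With the exchange 2 passed, ANXA7 lower and ANXA6 higher in NEFA GCs. ANXA7, which takes part in membrane fusion, had -0.41 (SE 0.10, unadjusted p = 0.0054, adjusted p = 0.648 in limma) with the exchange and -0.15 as headed. ANXA6 had 0.32 (SE 0.11, unadjusted p = 0.024, adjusted p = 0.808 in limma), from a probe above background in 2 of 8 RNAs, and did not pass without array A, B or D. The median over the 9 annexins was 0.05 as headed and -0.00026 exchanged, beside -0.02 and -0.01 over all genes.

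Of 12 measured partners of S100A10 and genes of the plasminogen system, 0 passed as headed and 1 with array A exchanged, and 6 were above background in no RNA. The gene that passed was PLAU, the urokinase that activates plasminogen, with -0.34 (SE 0.08, unadjusted p = 0.0048, adjusted p = 0.647 in limma) exchanged and -0.15 (SE 0.15) as headed. Its ratio was 0.39 on array A as headed, -0.28 on B, -0.47 on C and -0.24 on D, below 0 on the 3 other arrays as for S100A10. PLAT, the tissue-type activator, had 0.00 (SE 0.12) as headed and -0.10 (SE 0.12) exchanged. PLAUR, the urokinase receptor, lay between -0.93 on array C and 0.61 on array B, and its mean was -0.24 (SE 0.24) as headed and -0.03 (SE 0.25) exchanged. The median over the 12 was -0.01 as headed and -0.02 exchanged.

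Of 9 measured partners of S100A4, 1 passed in each reading, and it was a different gene. IQGAP1, a scaffold protein of the actin cytoskeleton, was higher in NEFA GCs on all 4 arrays as headed, with 0.37, 0.24, 0.23 and 0.38 on arrays A to D. The mean was 0.31 (SE 0.08, unadjusted p = 0.0073, adjusted p = 1.00 in limma) as headed and 0.12 (SE 0.14) with the exchange. METAP2, a methionine aminopeptidase, had -0.27 (SE 0.09, unadjusted p = 0.019, adjusted p = 0.750 in limma) exchanged and -0.09 as headed, and did not pass without array A, B or C. MYH10, a heavy chain of non-muscle myosin, was above background in 2 of 8 RNAs and had -0.10 (SE 0.08) as headed and -0.09 (SE 0.08) exchanged. MYH9 was not analysed here. TPM2, a tropomyosin, had -0.02 (SE 0.08) and -0.01 (SE 0.08), likewise from a spot near the top of the scale.

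S100A4 is also a fibroblast marker, so stromal markers were read beside it. Of 8 measured theca, stroma and fibroblast markers 5 were above background in all 8 RNAs, COL1A2, DCN, LUM, ACTA2 and POSTN, and CYP17A1, which defines theca cells, was in none. The summed raw signal of the 8, less local background and before normalization, ranged from 88574 to 110744 in NEFA RNAs. It ranged from 96869 to 103205 in control RNAs, with array A as headed in both, so the groups overlapped. The sum included ACTA2 spots of 36449 to 39462, near the top of the scale. Overlap of the sums therefore does not show that the stromal signal was unchanged. DCN had a log2 ratio of -0.10 as headed and -0.09 exchanged, LUM -0.01 and -0.04, and 0 of the 8 passed the criterion in either reading. Of the other marker lists, 0 of 7 granulosa, 0 of 8 leukocyte, 0 of 3 endothelial, 0 of 2 epithelial and 0 of 6 oocyte and cumulus genes passed in either reading. Over all genes 0.803% passed as headed and 4.17% with the exchange. Counts of 0 in marker lists this short are therefore no result about the markers. Among the 6 oocyte and cumulus genes, 2 were above background in all 8 RNAs, GDF9 and HAS2, and 3 were in none. Of the 2 epithelial genes, EPCAM was above background in all 8. What share of the S100A4 signal came from stromal or other cells was not tested.

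Of 10 measured partners and receptors of S100A8, 0 passed in either reading. TLR4 was above background in no RNA, and its co-receptor LY96 was in all 8, with 0.00 (SE 0.12) as headed and -0.18 (SE 0.09) exchanged. AGER, above background in 7 of 8 RNAs, had -0.09 (SE 0.10) and -0.17 (SE 0.08). CD36, a fatty acid translocase, had -0.14 (SE 0.09) and -0.11 (SE 0.09), and NCF4, a subunit of the NADPH oxidase, -0.16 (SE 0.09) and -0.15 (SE 0.09), from probes above background in 4 and 2 of 8 RNAs.

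Among 15 other EF-hand proteins 0 passed in either reading, and the medians were 0.02 as headed and 0.01 exchanged. CALU, a calcium-binding protein of the endoplasmic reticulum, had -0.22 (SE 0.13) as headed and -0.23 (SE 0.12) exchanged. TNNC1, a troponin C, had 0.15 (SE 0.08) and 0.01 (SE 0.10) and was above background in no RNA. CETN3, a centrin, had 0.14 (SE 0.09) and 0.04 (SE 0.11). With the exchange CETN2, another centrin and above background in all 8 RNAs, had -0.22 (SE 0.08, unadjusted p = 0.029, adjusted p = 0.853 in limma), and CALB1, a calbindin above background in none, had -0.26 (SE 0.08, unadjusted p = 0.018, adjusted p = 0.745 in limma), both short of 1.2-fold. As headed they had -0.15 (SE 0.10) and -0.16 (SE 0.12). Over all 61 measured genes of the S100, annexin, partner and EF-hand lists, 1 passed as headed (higher in NEFA GCs) and 4 with the exchange (1 higher, 3 lower). Beside 0.803% and 4.17% of all genes, neither count stands out.

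The genes whose ratios came closest to those of S100A10 were sought among the 2460 others above background in all 8 RNAs, by the root mean square difference over the 4 arrays. EFEMP1, an extracellular matrix glycoprotein, was nearest with a difference of 0.0994 on the log2 scale. Its ratio was 0.91 on array A as headed, -1.02 on B, -0.83 on C and -0.52 on D. TOP2A, the topoisomerase of dividing cells, and SCD, the stearoyl-CoA desaturase that makes oleic acid, followed at 0.193 and 0.195. TOP2A had 1.04, -1.22, -1.05 and -0.30 on arrays A to D, and SCD had 0.86, -0.75, -0.90 and -0.72. All 3 shared with S100A10 the opposite sign of array A as headed, which follows from the rule that picked them. The exchange turns array A for every gene, so it leaves these differences as they are.

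**Figure D4:**
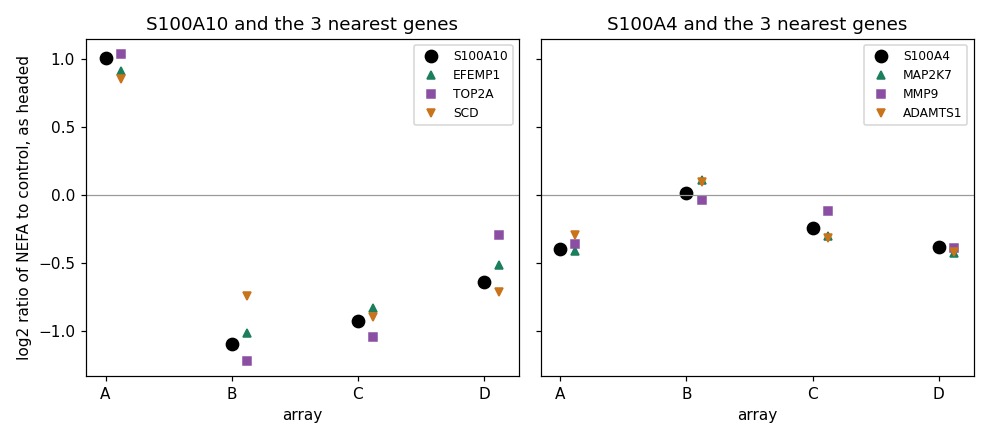
Log2 ratio of NEFA to control on arrays A to D, columns as headed, for S100A10 with EFEMP1, TOP2A and SCD (left) and for S100A4 with MAP2K7, MMP9 and ADAMTS1 (right). S100A10 and its neighbours lie near 1 on array A and below 0 on the other arrays, and S100A4 and its neighbours lie between -0.04 and 0.11 on array B and below 0 elsewhere.

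For S100A4 the nearest were MAP2K7, a kinase of the JNK pathway (0.0635), MMP9, a gelatinase (0.0704), and ADAMTS1, a protease of the ovulating follicle (0.0774). MMP9 had -0.36, -0.04, -0.12 and -0.39 on arrays A to D, and ADAMTS1 had -0.29, 0.09, -0.32 and -0.42. As for S100A4, array B was the one near 0. These small differences were picked from 2460 genes over 4 arrays. For S100A8 the nearest by the same rule were SEC24C, CCNG2 and CHD5, and since the S100A8 ratios came from spots at background they are named only.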

How the data were processed

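Members, partner lists and marker lists were chosen with earlier results of these data known. The intensity values the authors deposited are mean raw intensity and mean local background per spot and dye from Array-Pro, with no normalization. A further deposited table holds log2 ratios, which the authors normalized in FlexArray per the methods. Its direction is not stated, its column medians were -0.0092 to 0.00065, its row numbers did not match the spots, and no gene value was taken from it.

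Of 45220 spots per array, 43794 expression probes were analysed, with ignored spots (60 to 121 per array) set to missing. The platform annotation gave 13146 probes a single gene symbol. Probes without a single symbol were left unnamed, and 201 symbols were updated. Background was corrected with normexp (offset 50), loess was applied within arrays and quantile normalization between them, and the mean log2 ratio was tested in limma 3.58.1 (R 4.3.3), two-sided, with Benjamini-Hochberg adjustment over all probes. The array shared by the NEFA and control RNA of a replicate is the pairing. The brightest probe stood for a gene. Besides the members, the text names every measured S100 gene, listed genes that passed in either reading or otherwise the 3 with the smallest p as headed of a partner or EF-hand list (marker lists are given by counts), key partners, and the 3 nearest patterns; further list genes in the text were picked with their values in view. The procedure was tested on simulated data. The array's genome build is not stated, so no coordinates or sequences are given.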

Additional observations from a re-analysis of the deposited data

Results flagged for a closer look

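The log2 ratios of the detected S100 genes and of the list genes that passed the criterion were searched for an array far from the other arrays (Dixon's gap over range), and 2 of 32 sets of 4 ratios were past it. Chance flags about 1 in 20 such sets. S100G had 0.21 on array B, against -0.08 to -0.04 on the other arrays with columns as headed, from a probe above background in 1 of 8 RNAs. ANXA7 had -0.12 on array D, against -0.53 to -0.50 on the other arrays with array A exchanged. S100A10 and S100A4 had no such array in either reading.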

How the results depend on the processing

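The members' values were recomputed under each alternative. By the titles the log2 ratios as headed became 0.41 for S100A10, 0.25 for S100A4 and -0.31 for IQGAP1. With array A exchanged they became 0.92 for S100A10, 0.055 for S100A4, -0.32 for ANXA6, 0.41 for ANXA7, 0.34 for PLAU and 0.27 for METAP2. Under the other settings S100A10 stayed below 0 in all 12 set beside the value as headed. These included the exchange of array A (-0.92, or -0.98 with a dye term) and the fit without replicate 1 and with a dye term (-0.94). The rest kept all 4 arrays as headed and gave -0.41 to -0.34. Several of these could change only the standard error and not the mean ratio. They were the dye term, the fit without the block, the intensity trend with a robust prior, the mean over probes and the restriction to probes above background. With the exchange as the main reading, S100A10 was below 0 in all 10 (-0.98 to -0.74). There, too, the same settings apart from the dye term could not move the mean. Leaving out 1 replicate gave -0.89 to -0.19 as headed and -1.01 to -0.86 exchanged. S100A4 as headed moved beyond 1 SD to -0.055 with the exchange and -0.033 with a dye term beside it, and leaving out 1 replicate gave -0.34 to -0.20. With the exchange S100A4 ranged from -0.20 to 0.06 when 1 replicate was left out, and was 0.05 without normalization between arrays. S100A8 was above background in 0 of 8 RNAs at limits of 1, 2 and 3 SD. The count of 80 genes as headed became 46 with background subtraction, 19 with no background correction, 44 with no replicate block, 10 among probes above background, 415 with the exchange, 437 with the exchange and a dye term, 656 without replicate 1 and with a dye term, and 27 to 1468 with 1 replicate left out. The 415 genes with the exchange became 152 without the block that pairs the RNAs of an array, and 311 to 674 with 1 replicate left out. Of the other S100 genes 1 was called without replicate 1 and with a dye term, 0 to 2 as headed with 1 replicate left out, and 0 to 1 with the exchange. Of the other listed genes, 1 as headed became 0 with subtraction, with no background correction and without the block, 8 without replicate 1 and with a dye term, 4 with the exchange, 6 with the exchange and a dye term, and 1 to 6 with 1 replicate left out. The 4 with the exchange became 2 with subtraction and without the block, and 2 to 6 with 1 replicate left out. In the fits on all 4 arrays with the exchange and a dye term, the dye of array A was kept as headed. Fewer probes enter the fit restricted to those above background, and otherwise the cause was not tested.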
